A study of Mus musculus with 6 samples.

Results

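Complement is a set of secreted proteins, inhibitors and receptors, and 31 mouse genes of this system were followed here through RNA sequencing of sorted skin cells. The genes were chosen by name, from a list of complement components, regulators and receptors, and 29 of the 31 had a row among the 23934 genes of the expression table. Masp2 and Vsig4 were not analysed here. The classical and lectin pathways start when a recognition molecule, such as C1q or a collectin, engages its target and activates an attached serine protease, which then cleaves C4 and C2. The alternative pathway runs on C3, factor B and properdin, and every route leads to cleavage of C3, then of C5, and to assembly of the membrane attack complex from C5b, C6, C7 and later components. Host cells protect themselves with surface regulators such as CD55, CD46 and CD59, and the released fragments C3a and C5a act on leukocyte receptors. Although the liver makes most of the complement in plasma, dermal fibroblasts, keratinocytes and macrophages are known local sources.

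The study compared 3 knockout libraries with 3 control libraries at day 50. The knockout mice were labelled ZNF750 fl/fl, Rosa26 -/-, with 1 copy of Lrig1-CreER or Lrig1-CreERT2. Zfp750, written ZNF750 in the genotypes, encodes a transcription factor of epidermal differentiation, and Lrig1 marks cells of the upper hair follicle, so recombination is limited to cells in which the Lrig1-driven recombinase was active at the time of dosing and to their descendants. The 3 control mice were labelled ZNF750 wt/fl, Rosa26 -/- with Lrig1-CreERT2 +/-, then ZNF750 wt/wt, Rosa26 +/- with Lrig1-CreERT2 +/-, and ZNF750 wt/fl, Rosa26 -/- with Lrig1-CreER +/-. Controls thus also carried the recombinase, and 2 of the 3 had 1 floxed allele. All mice of both groups were given 4-hydroxytamoxifen, on days 4 to 7 or on days 5 to 8. Sorting was for tdTomato, a red fluorescent reporter protein. The labels give neither sex nor strain. The 3 control genotypes differ as labelled, which points to different mice, but the labels do not state this for the knockout libraries. The p-values below therefore cover the variation among these 6 libraries, part of which could be technical.

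The libraries are called knockout S5, S6 and S7 and control S2, S3 and S4 after the numbers in the table's column names, which show the group but not which labelled mouse a column belongs to. Estimated depth was 16940619 to 20222372 reads in knockout libraries and 15310161 to 20705441 reads in control libraries. Reads of the deleted gene itself were few in all libraries but control S4: Zfp750 had 5, 2 and 9 reads in knockout S5, S6 and S7, against 33, 3 and 373 reads in control S2, S3 and S4, so the gene did not separate the groups, with control S3 as low as the knockouts. The sorted cells were rich in fibroblast transcripts: 10 fibroblast markers summed to between 938287 and 1243940 normalized units in knockout libraries, against 2998100 to 8933290 in control libraries. Of these 10 markers, 2 passed the test, both higher in knockout libraries, and none passed it as lower. The basal keratinocyte sum was far smaller, at 2918 to 22163 in knockout libraries and 571 to 23516 in control libraries, and was lowest in control S3. Pearson correlations across genes were 0.929 to 0.971 between libraries of 1 group.

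Of the 29 complement genes measured, 25 passed the filter on low values and 4 (Colec11, C6, Cfi and C5ar2) did not. In the limma test, 5 of the 25 were higher in knockout libraries, namely Masp1, C4b, Hc, C3 and Colec12, and 1, Cd55, was lower. Over all 15935 genes tested, 6.71% were called, 4.12% as higher and 2.59% as lower in knockout libraries. An unadjusted p under 0.05 was reached by 13 of the 25, against 23.2% of all genes tested. The median log2 fold change of the 25 genes was 0.98, against 0.01 over all genes tested, and 19 of the 25 had a positive fold change, against 51.2% of all genes. In 13 of the 25 every knockout library lay above every control library, which 15.7% of all genes tested did, and in 2, Cd55 and Cd46, every knockout library lay below, which 13.1% of all genes did. The genes that passed the filter include those that passed it through knockout libraries alone, so these counts describe the list and are not a test of it. Without control S3, whose Zfp750 reads were few, C2 was called too, so that 6 genes were higher, and Cd55 was not called. Over all genes, 596 were called in that fit, against 1070 with all libraries. Without knockout S7, which stands apart in the C1q genes described below, C3, C4b, Hc and Masp1 were higher and none of the 25 was lower. Over all genes, 503 were called in that fit. Values are normalized read counts, and fold changes are log2 differences of the value plus a pseudocount of 9.15, knockout minus control, so they understate changes of low genes.

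**Figure D1:**
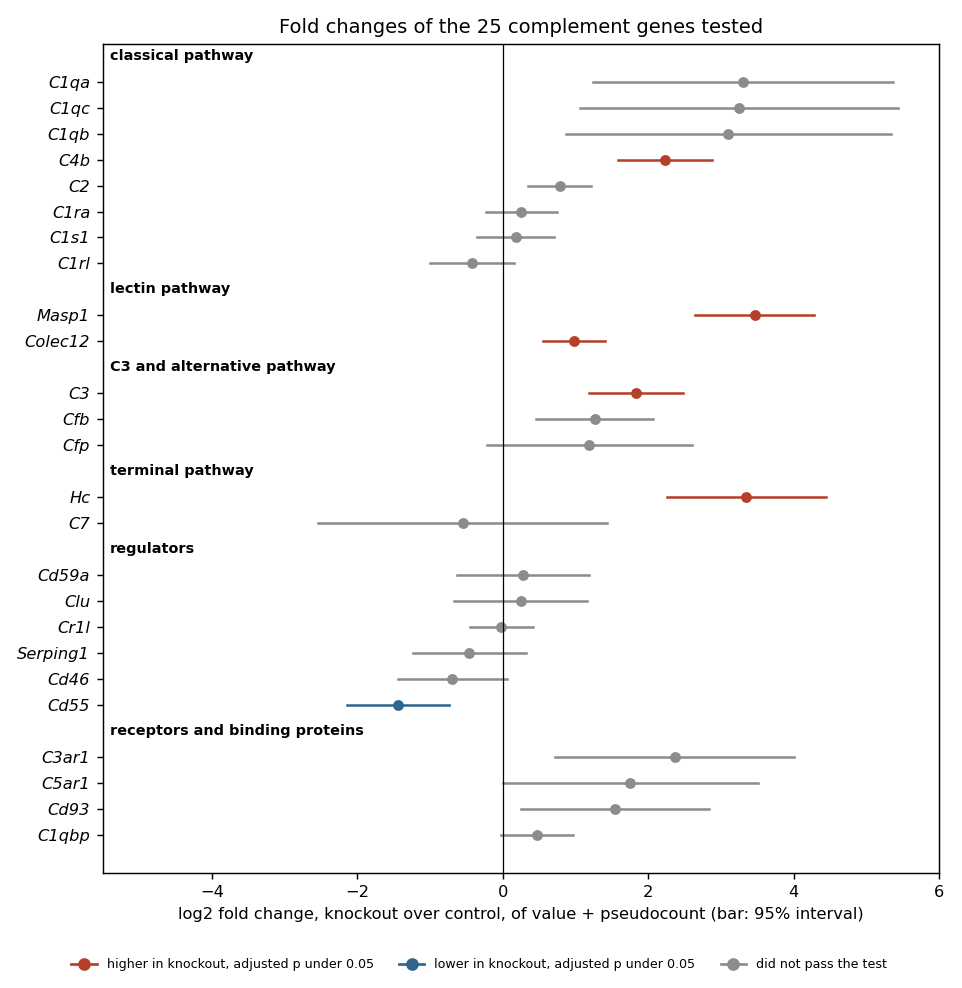
Log2 fold changes (knockout over control, x axis) with 95% intervals of the limma fit for the 25 complement genes tested, grouped by role along the y axis. Red marks the 5 genes that were higher, blue the 1 gene, Cd55, that was lower at an adjusted p under 0.05, and grey the 19 that did not pass. The C1q chains at the top have large positive values with wide intervals.

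The classical pathway begins with C1q, a hexamer of trimers of C1qa, C1qb and C1qc chains that binds antibody complexes and dying cells. C1qa was measured at 174, 97.5 and 1394 in knockout S5, S6 and S7, against 26.7, 9.99 and 32.0 in control S2, S3 and S4. C1qb was at 205, 148 and 1762 in the knockout libraries and 16.5, 22.5 and 107 in the control libraries. C1qc was at 212, 115 and 1792 in the knockout libraries and 19.1, 18.7 and 63.9 in the control libraries. For all 3 chains each knockout library lay above each control library, but S7 stood about an order of magnitude above S5 and S6. With this spread, none of the chains passed the test: C1qa had a log2 fold change of 3.31 ± 0.88 (SE; adjusted p = 0.0716, limma), C1qb of 3.10 ± 0.96 (adjusted p = 0.106) and C1qc of 3.25 ± 0.94 (adjusted p = 0.0886). The 3 genes lie side by side on chromosome 4, with 3616 bases between C1qb and C1qc and 2851 between C1qc and C1qa in the table's own coordinates, for which no genome build is stated.

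C1r and C1s are the serine proteases that C1q activates, and their genes were among the most abundant of the set and did not pass the test. C1ra was at 12953, 9625 and 9528 in the knockout libraries, against 8871, 9898 and 7964 in the control libraries, a log2 fold change of 0.25 ± 0.21 (95% interval -0.23 to 0.74; adjusted p = 0.513, limma). C1s1 was at 16733, 11643 and 11117 in the knockout libraries, against 11633, 10765 and 11904 in the control libraries, a log2 fold change of 0.18 ± 0.23 (95% interval -0.35 to 0.71; adjusted p = 0.684). For both genes the groups overlapped, and for C1s1 the difference turned to -0.01 without knockout S5. The size depended on the scaling: libraries set to a common total gave 0.58 for C1ra (adjusted p = 0.108, limma) and 0.50 for C1s1 (adjusted p = 0.247). Their mouse paralogs, which may share reads with them, were low: C1rb had group means of 12.2 in knockout and 8.43 in control libraries, and C1s2 of 23.7 in knockout and 6.19 in control libraries. C1rl, a protease related to C1r, had group means of 216 ± 21.5 in knockout and 303 ± 98.4 in control libraries (SD, n = 3 each), with overlapping groups and a log2 fold change of -0.43 ± 0.25 (adjusted p = 0.355).

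C4 and C2 are cleaved by C1s and MASP proteases to form the classical C3 convertase. C4b, the gene of mouse C4, was at 26788, 23281 and 36896 in knockout S5, S6 and S7, against 8134, 5203 and 5274 in control S2, S3 and S4. No knockout value came near the control range, and the 3 control values were close together. Its log2 fold change was 2.23 ± 0.28 (adjusted p = 0.00595, limma), a ratio of means of 4.67, and it passed the test in each of the 6 fits that left out 1 library. C4a, the sex-limited paralog, was at 21.1, 28.8 and 11.9 in the knockout libraries and 5.08, 9.22 and 11.0 in the control libraries, and how reads were divided between these near-identical genes is uncertain. C2 was at 1189, 1436 and 1367 in the knockout libraries, against 736, 964 and 640 in the control libraries. The C2 groups did not overlap, yet with a log2 fold change of 0.78 ± 0.19 the gene missed the threshold (adjusted p = 0.0530). C2 passed under 5 of the 16 alternative settings, among them quantile normalization and a stricter filter on low values.

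Of the genes grouped here with the lectin pathway, Masp1 and the membrane collectin Colec12 could be tested. Both were called higher in knockout libraries, against 4.12% of all genes tested. Masp1 encodes a protease that is carried by mannose-binding lectin, ficolins and collectins, and by alternative splicing also MASP-3, the activator of factor D, and a non-catalytic fragment, which a gene-level table cannot separate. Masp1 was at 13374, 19376 and 15662 in knockout S5, S6 and S7, against 1294, 2461 and 930.2 in control S2, S3 and S4. The lowest knockout value was several times the highest control value. The ratio of means was 10.3 and the log2 fold change 3.46 ± 0.35 (adjusted p = 0.00274, limma), which was the smallest adjusted p among the complement genes and held in each of the 6 fits that left out 1 library. Rtp4, a gene that overlaps Masp1 on the opposite strand in the table's coordinates, was at 346, 315 and 220 in the knockout libraries and 116, 142 and 91.7 in the control libraries, well under the Masp1 values of the same libraries. No source used here says whether reads were assigned by strand.

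Colec12 encodes a membrane collectin, a scavenger receptor known from human work to bind microbial and modified-lipid ligands and to recruit properdin. It was at 6897, 7528 and 6939 in the knockout libraries, against 3816, 4172 and 2943 in the control libraries. The groups were well apart and the knockout values close together. The log2 fold change was 0.98 ± 0.18 (adjusted p = 0.0245, limma), the smallest change of the 6 called genes. The call was lost without knockout S5 (adjusted p = 0.0527), S6 (0.0997) or S7 (0.0749) and without control S2 (0.0942), while the fold change stayed between 0.83 and 1.08. Colec11, a soluble collectin, was below the filter, at 0.981, 13.7 and 7.96 in the knockout libraries and 11.4, 6.25 and 1.68 in the control libraries, with a log2 fold change of 0.07 (adjusted p = 0.941 in the fit with no filter).

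**Figure D2:**
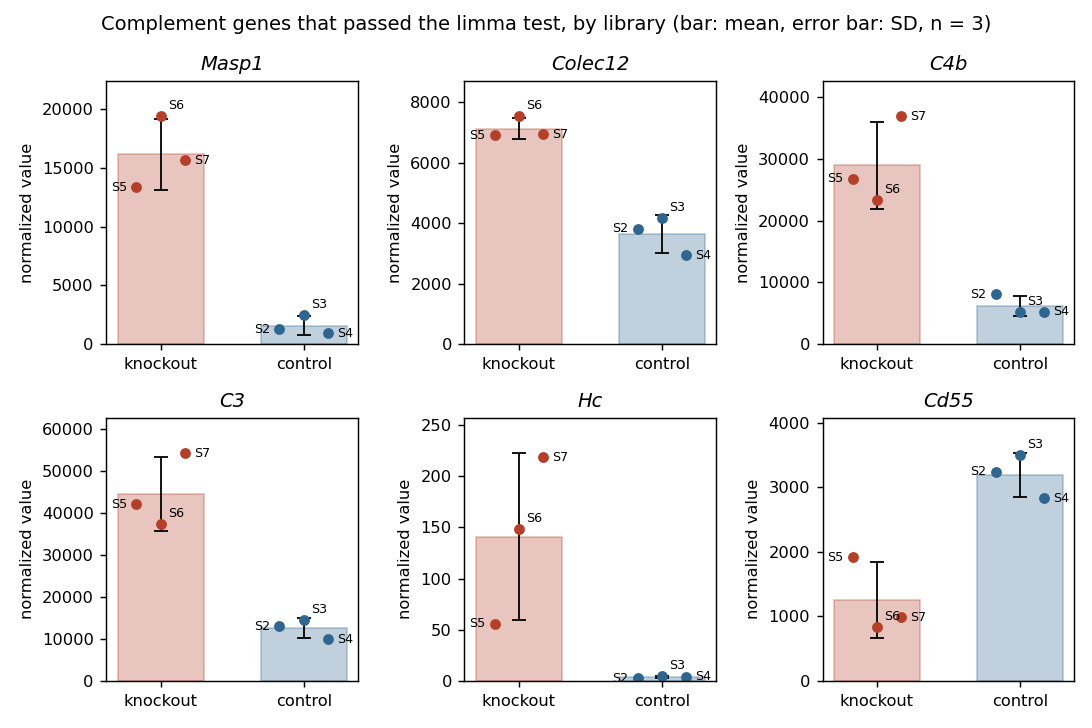
Normalized value (y axis, linear from 0, scaled per gene) of the 6 complement genes that passed the limma test, with each library as a labelled point, bars for group means and error bars for the SD (n = 3). Every knockout point of Masp1, Colec12, C4b, C3 and Hc lies above every control point, and every knockout point of Cd55 lies below.

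C3 is the protein on which all routes converge, and its gene had the highest knockout level of the 29 after Serping1 when set per kilobase of exon. C3 was at 42077, 37325 and 54277 in knockout S5, S6 and S7, against 13091, 14574 and 9885 in control S2, S3 and S4. The groups did not overlap, and S7 was again the highest knockout library, though by less than 2-fold. The log2 fold change was 1.83 ± 0.28 (adjusted p = 0.0107, limma) and the ratio of means 3.56. The call was lost in 1 of the 6 fits that left out a library, that without control S2 (adjusted p = 0.0652, log2 fold change 1.87).

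Factor B and properdin, the partners of C3 in the alternative pathway, were also higher on average but did not pass. Cfb, the catalytic subunit of the alternative C3 convertase, was at 5743, 2505 and 3036 in the knockout libraries, against 1685, 1785 and 1043 in the control libraries. Its groups did not overlap, with S5 well above S6 and S7, and its log2 fold change was 1.26 ± 0.34 (adjusted p = 0.0756, limma). C2 and Cfb both lie on the minus strand with 85 bases between them in the table's coordinates, C2 first in the direction of transcription. Cfp, the gene of properdin, was at 75.5, 64.7 and 344 in the knockout libraries and 41.9, 33.7 and 75.7 in the control libraries. Control S4 lay within the knockout range of Cfp, and the log2 fold change was 1.19 ± 0.61 (adjusted p = 0.287).

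Promoter sequences are shown for the called genes that have an entry in the RefSeq table of GRCm38.p6, which are C3, Hc and Cd55, so that the gene that was high, the gene that was nearly silent in controls and the gene that was lower can be compared. Each line holds the 250 bases before the annotated start, 5′ to 3′, all 3 on the minus strand, with matches to the searched motifs in capitals. C3 lies at chr17:57228137-57228386, Hc at chr2:35061413-35061662 and Cd55 at chr1:130462745-130462994.
C3: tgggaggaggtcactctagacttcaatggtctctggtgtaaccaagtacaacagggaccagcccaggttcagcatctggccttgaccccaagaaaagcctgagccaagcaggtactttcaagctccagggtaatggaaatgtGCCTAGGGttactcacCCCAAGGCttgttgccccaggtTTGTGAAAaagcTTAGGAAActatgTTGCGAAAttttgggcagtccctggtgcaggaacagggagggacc
Hc: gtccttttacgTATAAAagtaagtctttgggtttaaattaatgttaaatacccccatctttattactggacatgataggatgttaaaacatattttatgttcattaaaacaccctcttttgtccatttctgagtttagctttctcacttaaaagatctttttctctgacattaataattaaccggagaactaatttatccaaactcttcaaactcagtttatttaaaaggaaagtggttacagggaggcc
Cd55: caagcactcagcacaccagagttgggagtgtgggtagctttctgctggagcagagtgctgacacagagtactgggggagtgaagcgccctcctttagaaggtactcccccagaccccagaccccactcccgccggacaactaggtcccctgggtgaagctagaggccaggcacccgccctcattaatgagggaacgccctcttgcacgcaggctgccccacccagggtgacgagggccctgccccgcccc

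A set of 6 letter patterns were searched on both strands, in windows that run on to 50 bases after the start. These were the C/EBP pattern TTNNGNAA, the STAT pattern TTCNNNGAA, the IRF pattern GAAANNGAA, the TATA pattern TATAAA, the pattern CCNNAGGC reported for human ZNF750, and an NF-kB pattern. Of 32851 mouse promoters with windows of 300 bases, 40.7% held the C/EBP pattern, 24.1% the ZNF750 pattern, 13.6% TATAAA, 8.56% the IRF pattern, 8.46% the NF-kB pattern and 8.3% the STAT pattern. The C3 window held the C/EBP pattern at -70, -58 and -45, the ZNF750 pattern at -108 and -92, and TATAAA at +15. The Hc window held TATAAA at -239 and the C/EBP pattern at +38, and the Cd55 window held none of the 6. The short patterns are common, so a match is a description of the letters only, and binding was not measured. Of the 31 genes, 21 had a promoter entry.

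Hc, the mouse gene of C5, the source of the chemoattractant C5a and of C5b and a gene for which several inbred mouse strains carry an inactive allele, was close to absent from control libraries. Hc was at 55.9, 149 and 219 in knockout S5, S6 and S7, against 2.54, 5.00 and 4.21 in control S2, S3 and S4, where it rested on 2, 4 and 5 reads. All 3 knockout values were more than an order of magnitude above the highest control value, and they differed among themselves with S7 the highest. Hc passed the filter on low values through the knockout libraries alone, so a difference was built into its being tested, and under the stricter filter of 5 per 1000000 it was not tested. The log2 fold change was 3.35 ± 0.47 (adjusted p = 0.00863, limma), and the call was lost without knockout S6 (adjusted p = 0.0511, log2 fold change 3.23). Even so, per kilobase of exon the knockout level of Hc was 22.5, against 8664 for C3.

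The other terminal components measured showed no call. C6 was below the filter, at 22.6, 11.8 and 225 in the knockout libraries and 8.90, 8.74 and 6.73 in the control libraries, so every knockout value was above every control value but S7 stood 13.1 times above the mean of S5 and S6. Its log2 fold change in the fit with no filter was 1.64 ± 0.80 (adjusted p = 0.302, limma). C7 was at 78.4, 71.1 and 103 in the knockout libraries and 564, 30.0 and 101 in the control libraries. The control libraries alone spanned the knockout range, and the log2 fold change of C7 was -0.55 ± 0.85 (adjusted p = 0.746), or 0.49 without control S2.

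Among the regulators, Cd55 was lower in knockout libraries. It encodes decay-accelerating factor, a membrane protein that dismantles C3 convertases on the cell's own surface. Cd55 was at 1920, 839 and 984 in knockout S5, S6 and S7, against 3240, 3503 and 2835 in control S2, S3 and S4. The highest knockout value stayed below the lowest control value, and S5 was the highest of the knockout libraries. The log2 fold change was -1.44 ± 0.30 (adjusted p = 0.0343, limma), which is a ratio of means of 0.391. The call was lost without knockout S6 (adjusted p = 0.116) or S7 (0.108), without control S2 (0.125) or S3 (0.0932), and in a fit with no intensity trend (0.0563). The paralog Cd55b was low, with group means of 1.27 in knockout and 16.8 in control libraries, and reads of the 2 genes may be shared.

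Cd46, a cofactor for cleavage of C3b and C4b that in mice is known chiefly from the testis, was at 50.0, 61.8 and 29.3 in the knockout libraries and 69.8, 67.2 and 104 in the control libraries. All knockout values lay below the control values, the nearest by a small margin, and with a log2 fold change of -0.69 ± 0.32 the gene did not pass (adjusted p = 0.247, limma). Several non-coding genes overlap Cd46 in the table, of which A330023F24Rik was read more than Cd46 itself in each library, so the Cd46 values are uncertain. Cr1l, the gene of Crry, the rodent regulator with both decay and cofactor activity, was at 950, 881 and 938 in the knockout libraries and 1192, 889 and 776 in the control libraries. Its log2 fold change was -0.02 ± 0.19 (95% interval -0.45 to 0.41; adjusted p = 0.958), and its sign depended on the scaling, since libraries set to a common total gave 0.30. Cd59a, which blocks the membrane attack complex, had group means of 106 ± 46.9 in knockout and 81.7 ± 25.2 in control libraries (SD, n = 3 each), with overlapping groups (log2 fold change 0.28 ± 0.39, adjusted p = 0.720).

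Of the soluble regulators, Serping1, which encodes the C1 inhibitor of C1r, C1s and the MASPs, was the most abundant gene of the set in the control libraries per kilobase of exon. Serping1 was at 28697, 19012 and 18104 in the knockout libraries, against 31882, 38698 and 20929 in the control libraries. Knockout S5 lay inside the control range, and the log2 fold change was -0.46 ± 0.33 (95% interval -1.24 to 0.31; adjusted p = 0.452, limma). Per kilobase of exon, the mean level of Serping1 was 9435 in knockout and 13120 in control libraries, while C3 was at 8664 in knockout and 2434 in control libraries. Clu, the gene of clusterin, which binds terminal complexes, was at 201, 259 and 609 in the knockout libraries and 216, 319 and 276 in the control libraries (log2 fold change 0.24 ± 0.39, adjusted p = 0.758), and the sign turned to -0.22 without knockout S7. Cfi, the protease that inactivates C3b and C4b, was below the filter, with 6, 3 and 22 reads in the knockout libraries and 0 reads in each control library. Against the highest control floor of 3 reads per library, a normalized value of 3.81, the mean knockout value of 8.71 was 2.28 times as high. That mean rested mostly on knockout S7, at 17.5, while knockout S6, at 2.73, lay below this floor. The limma fit with no filter gave Cfi an adjusted p of 0.157.

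**Figure D3:**
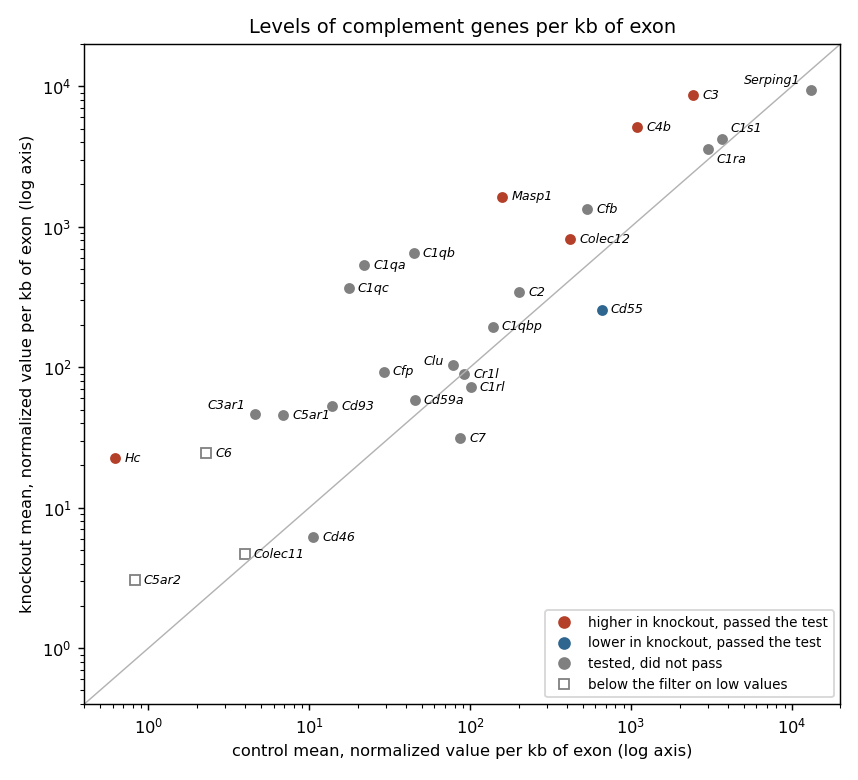
Mean level per kilobase of exon in knockout (y axis) and control libraries (x axis), both on log axes, for the measured complement genes with a control mean above 0, with a line of equality. Serping1, C3, C4b, C1s1 and C1ra were the most abundant, and Hc, the C1q chains and Masp1 lay far above the line. Open squares mark genes below the filter.

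The receptors were all measured at low levels. C3ar1, the receptor of C3a on myeloid cells, was at 79.4, 60.2 and 457 in knockout S5, S6 and S7, against 12.7, 13.7 and 32.8 in control S2, S3 and S4. The groups did not overlap, S7 stood 6.54 times above the mean of S5 and S6, and the log2 fold change of 2.36 ± 0.70 did not pass (adjusted p = 0.0956, limma). C5ar1, the main C5a receptor, was at 48.0, 27.3 and 274 in the knockout libraries and 11.4, 8.74 and 32.8 in the control libraries, with control S4 above knockout S6 (log2 fold change 1.75 ± 0.75, adjusted p = 0.216). C5ar2, a second C5a receptor that does not couple to G proteins, was below the filter, at 6.86, 7.29 and 18.3 in the knockout libraries and 1.27, 5.00 and 2.52 in the control libraries (adjusted p = 0.233 with no filter). Cd93, first described as a C1q receptor and present on endothelial and myeloid cells, was at 147, 202 and 707 in the knockout libraries and 77.5, 134 and 68.1 in the control libraries (log2 fold change 1.54 ± 0.56, adjusted p = 0.153). C1qbp, a mostly mitochondrial protein that also binds C1q, was at 490, 460 and 699 in the knockout libraries and 339, 375 and 457 in the control libraries (log2 fold change 0.47 ± 0.21, adjusted p = 0.236). In C3ar1, C5ar2, Cd93 and C1qbp every knockout value was above every control value. The margin was small in Cd93 and C1qbp, and C5ar2 rested on few reads.

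Knockout S7 stood apart in a subset of these genes. C1qa, C1qb, C1qc, C3ar1, C5ar1 and C6 were more than 5-fold higher in S7 than in the mean of S5 and S6, and a further 6 (Cfp, Hc, Cfi, Clu, C5ar2 and Cd93) were more than 2-fold higher. Hc was the only called gene among the 12. The macrophage marker list moved in the same library: the 12 markers in the table summed to 2293, 2474 and 15876 in knockout S5, S6 and S7, against 2274, 2759 and 2991 in control S2, S3 and S4. None of its 9 tested markers passed the test, and none was at 0 in every library. Csf1r and Mertk made up 84.2%, 85.9% and 36.6% of the sum in control S2, S3 and S4. The fat cell sum was 2890 in S7, against 230 and 713 in S5 and S6 and 128 to 234 in control libraries. The endothelial sum was 6733 in S7, against 1574 and 2282 in S5 and S6 and 1428 to 2281 in control libraries. The sebocyte sum was 53587 in S7, against 12016 and 15134 in S5 and S6 and 13535 to 19940 in control libraries. The basal keratinocyte sum was 22163 in S7, against 3244 and 2918 in S5 and S6, and 5143, 571 and 23516 in control S2, S3 and S4. The summed levels of neutrophil and mast cell markers were higher in every knockout library than in every control library. The neutrophil sum was 86.3, 178 and 929 in knockout S5, S6 and S7, against 8.90, 3.75 and 21.9 in control S2, S3 and S4, with 1 of 2 tested markers, Mmp8, called higher, a gene that passed the filter through knockout libraries, and each of its 8 markers in the table at 0 in at least 1 library. The mast cell sum was 1482, 4506 and 1781 in the knockout libraries, against 76.2, 77.4 and 701 in the control libraries, with 3 of 7 tested markers called higher and Fcer1a at 0 in each control library. Fcer1a was 1 of the 3 called and passed the filter through knockout libraries alone, so a difference was built into its being tested. The T cell sum overlapped between the groups, but Thy1 made up 86.9% to 99.7% of it. Without Thy1, an alternative chosen after seeing the values, it was 155, 1027 and 1422 in the knockout libraries, against 75.0, 55.0 and 402 in the control libraries, which still overlapped, and none of the 8 tested T cell markers passed. The suprabasal keratinocyte sum was 115, 61.4 and 405 in the knockout libraries, against 363, 161 and 1188 in the control libraries. The upper hair follicle sum was 3180, 2956 and 6944 in the knockout libraries, against 3439, 746 and 8462 in the control libraries. Both overlapped between the groups, and both were highest in S7 among the knockout libraries. The part of these cell types in the results was not tested. In sorted bulk cells, fewer cells of a type and less RNA per cell cannot be told apart.

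The C1q chains were also set beside the macrophage list, a comparison that cannot reach p under 0.05 with 3 libraries a group. The summed C1q chains were 590, 360 and 4949 in knockout S5, S6 and S7, against 62.3, 51.2 and 203 in control S2, S3 and S4. Divided by the macrophage marker sum, this gave 0.257, 0.146 and 0.312 in the knockout libraries, against 0.0274, 0.0186 and 0.0678 in the control libraries, a mean log2 difference of 2.80. The exact 2-sided permutation test gave p = 0.1, which is the smallest p that 3 against 3 libraries allow (0.1 also when adjusted over the 2 ratios tested). Without Csf1r and Mertk, an alternative chosen after seeing the values, the ratios were 0.383, 0.256 and 0.366 in the knockout libraries and 0.173, 0.131 and 0.107 in the control libraries, a log2 difference of 1.29 (exact permutation p = 0.1). The groups did not overlap in either form, but the difference was less than 0.5 as large on the log2 scale with those 2 markers removed. With all markers but without knockout S7, the log2 difference was 2.57 (exact permutation p = 0.2, where 0.1 was the smallest possible).

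**Figure D4:**
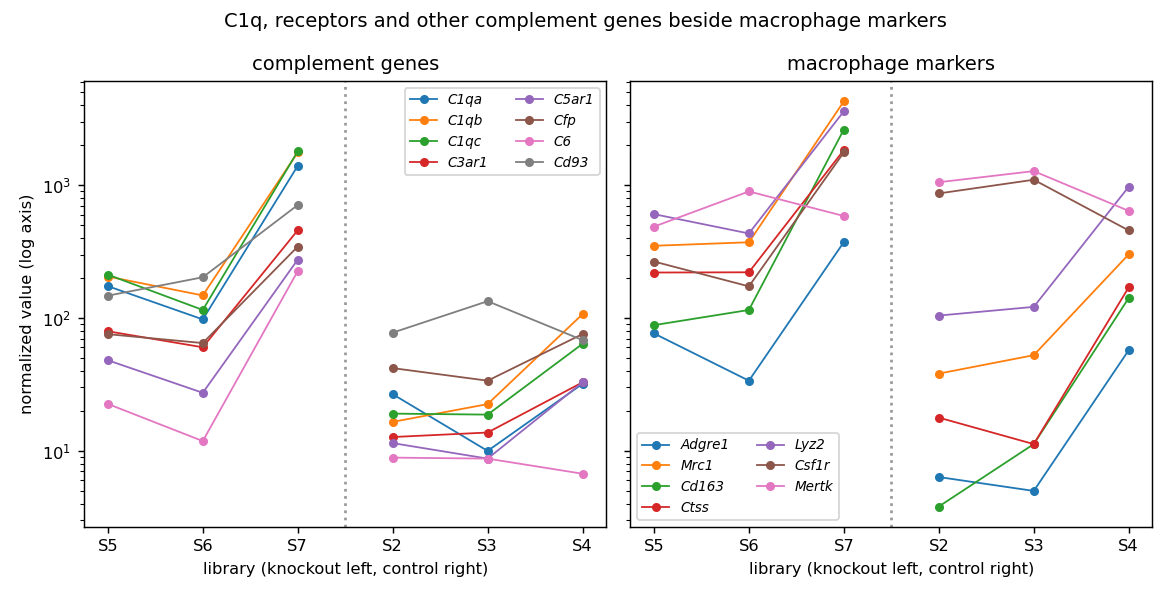
Normalized value per library (log y axis) of 8 complement genes (left) and 7 macrophage markers (right), with knockout S5, S6 and S7 left of the dotted line and control S2, S3 and S4 right of it in each panel. Points of 1 gene are joined within a group for reading only. All 8 complement genes are highest in S7, as are the markers other than Mertk, and Csf1r and Mertk are high in control S2 and S3.

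The components that fibroblasts are known to make were set beside the fibroblast list in the same way. C1ra, C1s1, C3, C4b, Serping1 and C7 summed to 127326, 100956 and 130024 in knockout S5, S6 and S7, against 74175, 79168 and 56058 in control S2, S3 and S4, a log2 difference of 0.78 (exact permutation p = 0.1). The fibroblast marker sum had a log2 difference of the opposite sign, -2.23, and Col1a1, Col1a2 and Col3a1 made up 81.6% to 85.7% of it in knockout libraries and 93.6% to 95.8% in control libraries. The ratio was 0.102, 0.108 and 0.126 in the knockout libraries, against 0.0161, 0.00886 and 0.0187 in the control libraries, a log2 difference of 3.01 (exact permutation p = 0.1). Without the 3 fibrillar collagens, again an alternative chosen after seeing the values, it was 0.604, 0.586 and 0.879 in the knockout libraries and 0.250, 0.212 and 0.344 in the control libraries, a log2 difference of 1.36. Of the 6 genes summed, C3 and C4b passed the test, and C1ra, C1s1, Serping1 and C7 had overlapping groups. Pdgfra, a fibroblast marker, was itself higher (adjusted p = 0.0165, limma), as was Pdgfrb (adjusted p = 0.0384). Pdgfra was at 29489, 23877 and 25506 in the knockout libraries against 10932, 11482 and 10886 in the control libraries. With 1 library left out, the call held in 3 of the 6 fits for Pdgfra and in 0 of the 6 for Pdgfrb. No other fibroblast marker of the list passed. Col1a1, Col1a2, Col3a1, Dcn and Lum had log2 fold changes of -2.67, -2.71, -1.68, -0.99 and -0.96. Those of Dpt, Fbln1 and Mfap5 were -0.02, 0.49 and -0.25.

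A second list of 44 complement genes, relatives and binding partners outside the 31 gave a background within the system. Of its members, 29 were in the table and 17 were tested, of which 2 were called higher, none lower and 15 did not pass, against the 6.71% called over all genes tested. An unadjusted p under 0.05 was reached by 9 of the 17, against 23.2% of all genes tested. Its median log2 fold change was 0.67. Cfd, the gene of factor D or adipsin, the protease that cleaves factor B and that fat cells secrete, was at 126, 718 and 6209 in knockout S5, S6 and S7, against 5.08, 7.49 and 15.1 in control S2, S3 and S4. The knockout values differed by more than an order of magnitude, in the same order as the fat cell sum given above, whose part was not tested, and the log2 fold change was 5.56 ± 1.19 (adjusted p = 0.0368, limma). Cfd passed in 2 of the 6 fits that left out a library, those without knockout S5 or S7. As with Hc, no control library reached the filter level for Cfd, so a difference was built into its being tested.

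**Figure D5:**
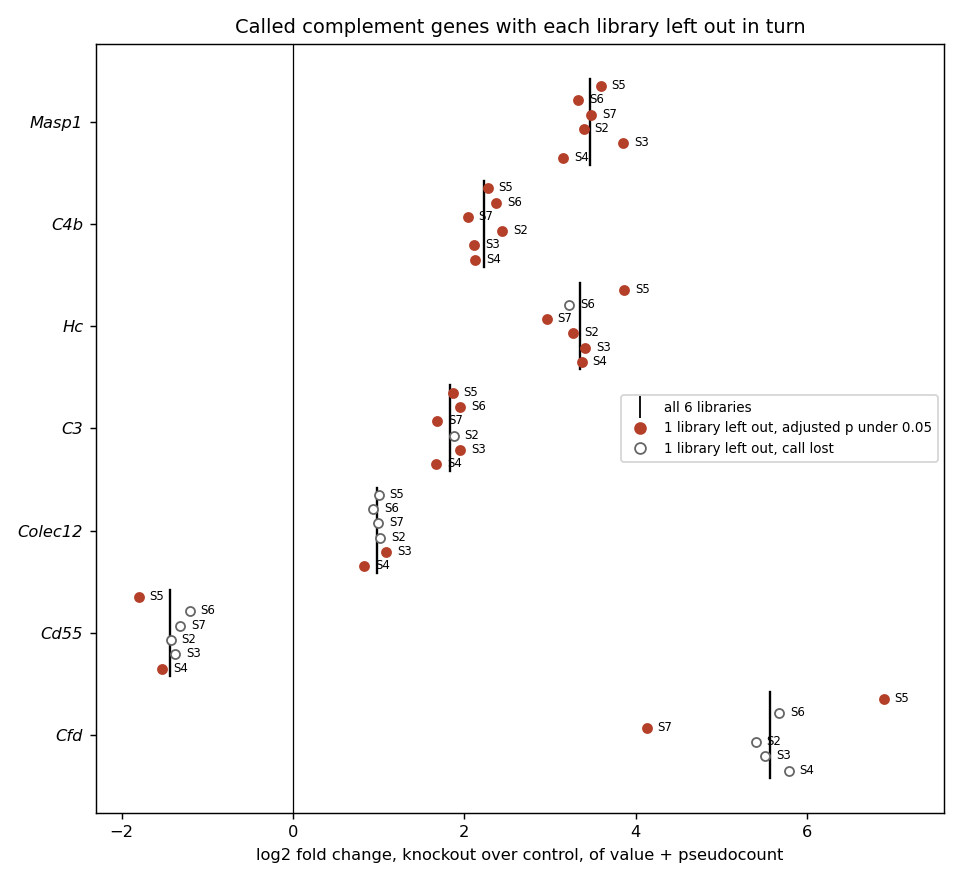
Log2 fold change (x axis) of the 6 called complement genes and of Cfd (y axis) in fits that each leave out 1 library, named beside its point. Vertical bars give the value from all 6 libraries, filled points an adjusted p under 0.05 and open points a lost call. Masp1 and C4b keep the call in all 6 fits, C3 and Hc in 5, and Colec12, Cd55 and Cfd in 2.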

How the data were processed

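RNA from sorted skin cells was extracted with a PureLink kit and made into NEBNext Ultra II libraries, per the labels' protocols. The authors deposited a normalized count per gene and library, per the file headers. The deposited signal, judged from its values, is estimated reads that the authors divided by a size factor for the library, and 78.7% to 81.2% of the values up to 1000 reads are whole reads within 0.05. Count models were therefore not run. TopHat2 2.1.0 and Partek 9.0.20.0202 appear in the submitters' processing notes, with no roles. The genome build was not given in the sources used here. A floor of 3 reads equals a normalized value of 2.39 to 3.81, which covers counting error only.

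Groups were compared with limma 3.58.1 in R 4.3.3 with an intensity trend, on log2(value + 9.15), where 9.15 is 0.5 per 1000000 of the average total of a library. Genes had to reach 1 per 1000000 in at least 3 of 6 libraries, and p-values were Benjamini-Hochberg adjusted over the 15935 genes tested, with calls at an adjusted p under 0.05. The fit was tested on simulated data with the same spread setting for all genes. Genes as variable among libraries as the C1q chains or Cfd were not covered by it. Ratios of sums were compared by exact 2-sided permutation tests. Levels per kilobase use the exon union of GENCODE genes. All 31 genes are accounted for, and of the second complement list the called genes are named, except 1 that is not reported here; C4a, C1rb, C1s2, Cd55b, Colec10, Rtp4, A330023F24Rik, Pdgfra and Pdgfrb are named in addition, chosen once values were known. The genes and lists were chosen with earlier results of these data known. Alternatives varied the pseudocount, filter, scaling, variance model, weights, marker lists and libraries.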

Additional observations from a re-analysis of the deposited data

How the results depend on the processing

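The direction and call of Masp1 and C4b held under each of the 16 alternatives. Over all genes, 1070 were called, and 337 to 1285 with 1 library left out. The count was 1340 with a common total, 1997 with array weights, 864 without the intensity trend and 1014 with a pseudocount 4 times larger. Genes of the 31 called higher numbered 5, against 8 with libraries set to a common total, 11 with array weights (C1qa, C1qb, C1qc, C2, C3ar1 and Cfb in addition) and 3 to 6 with 1 library left out, and genes called lower numbered 1, against 0 without the intensity trend and 0 to 1 with 1 library left out. Of the second complement list, 2 genes were called, against 1 with a pseudocount 4 times larger, 4 with a common total, 0 without the trend, 6 with array weights and 0 to 3 with 1 library left out. A common total moved the median log2 fold change of all genes to 0.31 and the share of calls that were higher to 78.9%, against 61.4% as deposited and 52.8% after quantile normalization. Among single genes, Cr1l turned to 0.30 under a common total and ranged from -0.16 to 0.15 with 1 library left out, C1s1 from -0.0059 to 0.29, C7 from -1.44 to 0.49 and Clu from -0.22 to 0.56. The cause of these changes was not tested. The columns carry UB numbers, of which only UB2 and UB3 occur in both groups. Same-numbered libraries had correlations of deviations of 0.25 and -0.22, against -0.31 to 0.41 for the other combinations. With so few pairs, these values cannot show whether the numbers pair libraries. With the UB number as a replicate block, an alternative added after seeing the data, 1527 genes were called, 6 of the 31 higher and 1 lower, and 6 of the second list. Knockout S5 and control S4 share their number with no other library, so they did not bear on the group difference in this fit. It rested on knockout S6 against control S2 and knockout S7 against control S3 alone, which limits its calls. C1qb (adjusted p = 0.0392, limma) and Cd93 (0.0440) were called there and Colec12 was not (0.0631). The planned edgeR and DESeq2 alternatives were not run, since a part of the values are not whole reads. Depth limits Hc in control libraries, Cfi, C5ar2 and Colec11, which rest on few reads.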

Other observations

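Of summed C1q, C1qa made up 29.4%, 27.1% and 28.2% in knockout S5, S6 and S7, against 42.9%, 19.5% and 15.8% in control S2, S3 and S4, where the sums rest on few reads. The share of C1qb was 34.7%, 41.0% and 35.6% in the knockout libraries, against 26.5%, 43.9% and 52.7% in the control libraries. The share of C1qc was 35.9%, 31.9% and 36.2% in the knockout libraries, against 30.6%, 36.6% and 31.5% in the control libraries. Colec10, a collectin gene that forms complexes with Colec11, was below the filter but had 15.7, 17.3 and 12.7 normalized units in the knockout libraries, against 1.27, 0 and 1.68 in the control libraries (log2 fold change 1.27 ± 0.23, adjusted p = 0.0207, limma with no filter). It was named after its values were seen.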
